A study of Homo sapiens with 48 samples.

Results

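The 26 cholesterol synthesis and uptake genes are named here by symbol for their known roles, and all 26 were found among the 35535 genes of a count table from 48 RNA-seq libraries. The members comprise 19 enzymes that lead from acetyl-CoA to cholesterol, 5 regulators (SREBF2, SREBF1, SCAP, INSIG1 and INSIG2), and STARD4 and NPC1, which move sterol inside the cell. None of the members is a receptor that takes up lipoproteins, so the values below concern synthesis, its control and intracellular transport. The libraries came from 8 established cell lines derived from human bladder cancers: 639V, HT1197, HT1376, KU1919, SW780, T24, TCCSUP and VMCUB. In each line 3 libraries came from cells given 250 nM CPI-0209 for 4 days and 3 from cells given the vehicle DMSO. CPI-0209 inhibits EZH2, the catalytic subunit of the Polycomb repressive complex PRC2. All lines grew with 10% fetal bovine serum, a source of lipoprotein cholesterol, but in different media: HT1197, HT1376 and TCCSUP in MEM, SW780, VMCUB and 639V in DMEM, KU1919 in RPMI1640 and T24 in McCoy's 5A. A difference in level between lines therefore cannot be told apart from a difference between media where these differ. Each line stands for 1 tumour, and nothing in the labels says that the 3 replicates came from separate cultures. The p-values therefore measure the spread between these libraries, which may be technical. Those of the fit over all 8 lines, made on 1 sum per line and treatment, measure instead the spread of the response between lines.

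Cholesterol is built from acetyl-CoA by way of mevalonate, isoprenoid diphosphates, squalene and lanosterol, and the isoprenoid intermediates also feed ubiquinone, dolichol and protein prenylation. When sterol in the endoplasmic reticulum is low, SCAP escorts the SREBP proteins, encoded by SREBF2 and SREBF1, to the Golgi, where proteases release fragments that enter the nucleus and switch on the synthesis genes. When sterol is high, INSIG proteins hold SCAP back in the endoplasmic reticulum. SREBP-2 is known mainly for cholesterol genes and SREBP-1 also for fatty acid genes, and both act with the CCAAT-binding factor NF-Y and with SP1.

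Library totals ranged from 26481418 to 50916911 counts, and the members together took 0.175% to 0.378% of them. Per library a member had between 126 and 33435 counts. Levels are CPM (counts scaled to a common library size, here with TMM factors), means are ± SD with n = 3 libraries per group, and fold changes are log2 of CPI-0209 over DMSO ± SE from edgeR's quasi-likelihood test. A gene was called where its Benjamini-Hochberg adjusted p over all genes tested was under 0.05. The libraries expressed the 11 epithelial and urothelial markers at a summed level of 2074 to 44437 CPM with CPI-0209 and 2435 to 49466 CPM with DMSO, lowest in 639V and TCCSUP. Of 4 fibroblast markers the summed level in TCCSUP was 11047 to 11508 CPM with CPI-0209 and 7443 to 8800 CPM with DMSO, while in the other lines it stayed at or below 249.8 CPM. In every line but HT1376 the range of that sum with CPI-0209 lay above the DMSO range. The 4 leukocyte markers together reached at most 78.2 CPM with CPI-0209 and 104 CPM with DMSO, both in KU1919. CD3E had no count in KU1919, T24 and VMCUB, so other markers of the list carried the sum in these lines. The 3 endothelial markers together reached at most 14.3 CPM with CPI-0209 and 8.86 CPM with DMSO, and the urothelial marker UPK3A had no count in KU1919 and VMCUB. Their part in the results below was not tested.

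Across the 208 pairs of a member and a line, 69 were called lower with CPI-0209 and 12 higher. Over the 13011 genes tested in all 8 lines, 15.7% of such pairs were called lower and 15.5% higher. The falls were small: no call reached a 2-fold fall, and the deepest was -0.92 on the log2 scale, for DHCR7 in SW780. A single call passed a 2-fold rise, STARD4 in SW780. In bulk libraries such as these, fewer cells of a kind and less RNA per cell cannot be told apart. Of the members, 20 were called lower in at least 1 line and higher in none, 2 (SC5D and STARD4) were called higher in some lines and lower in none, 3 (HMGCS1, DHCR7 and INSIG1) were called in both directions, and SCAP was called in no line. Of the 13011 genes, 39.6% were called lower in at least 1 line and higher in none, 26% higher and never lower, 22.5% in both directions and 11.9% in no line. In each of the 81 calls the 3 CPI-0209 libraries lay wholly on one side of the 3 DMSO libraries. Such separation was not counted over the calls of all genes, so it adds no support to these calls.

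**Figure D1:**
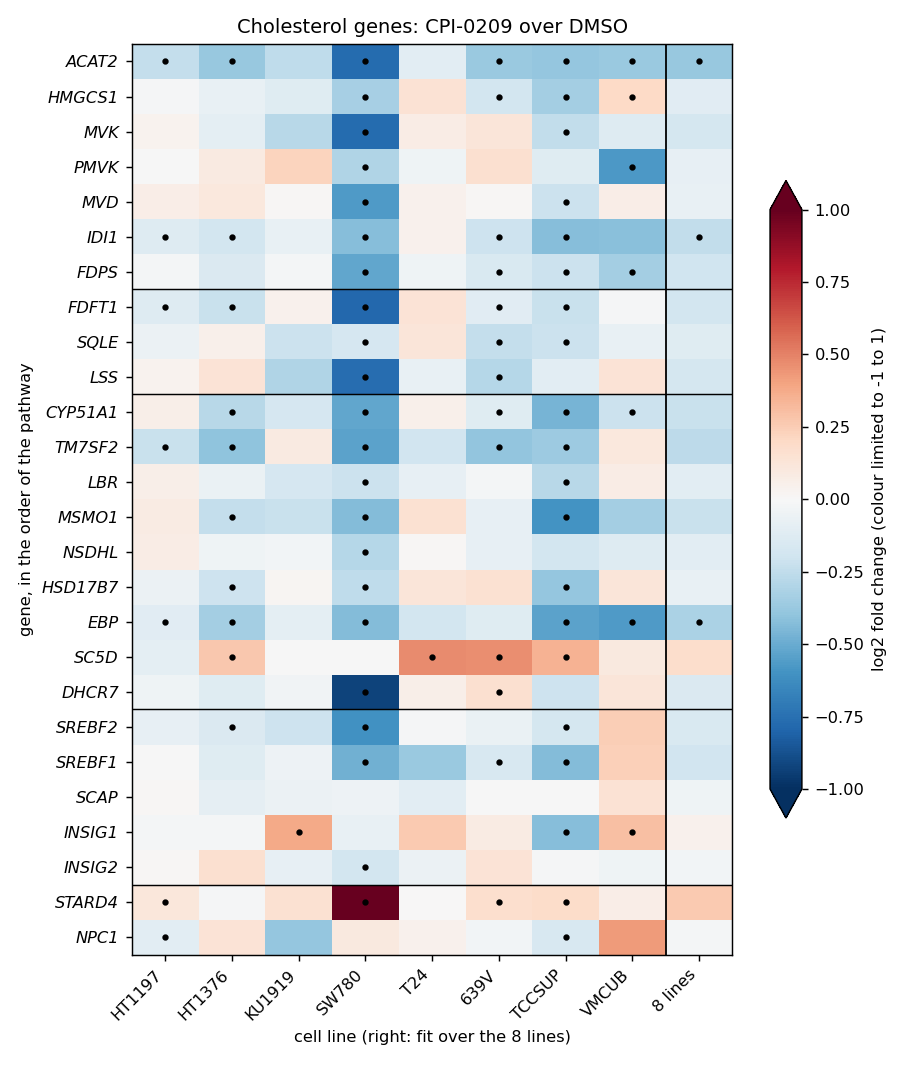
Log2 fold change of CPI-0209 over DMSO for the 26 members (rows, in pathway order, lines between role groups) in the 8 cell lines and in the fit over the 8 lines (right column). Colour is limited to -1 to 1 and dots mark an adjusted p under 0.05. SW780 has 21 members called lower and STARD4 called higher, TCCSUP has 18 called lower, and KU1919 and T24 have none called lower.

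The number of members called lower differed widely between lines. In SW780, 21 of 26 members (80.8%) were called lower, where 30.3% of the 16897 genes tested were called lower. In TCCSUP the count was 18 members (69.2%), against 23% of all genes tested in that line. It was 10 (38.5%) in 639V, against 17.1% of all genes, 9 (34.6%) in HT1376, against 16%, 6 (23.1%) in HT1197, against 7.8%, and 5 (19.2%) in VMCUB, against 11%. No member was called lower in KU1919 or T24, where 2.4% and 0.93% of all genes were. At an unadjusted p under 0.05 by edgeR's test, 6 members were lower in KU1919, where 9.13% of all genes were, and 1 in T24, where 5.49% were. DESeq2 called 1 member lower in KU1919 and 0 in T24, against 4.31% and 2.69% of all genes. Calls in the upward direction were few: 3 members in 639V, 2 each in TCCSUP and VMCUB, and 1 in each of the other 5 lines. Among all genes the share called higher was 22.1% in 639V, 25.7% in TCCSUP, 16.4% in VMCUB, 11.8% in HT1197, 23.7% in HT1376, 9.3% in KU1919, 30.8% in SW780 and 9.37% in T24. The median fold change over the 26 members was -0.43 in SW780, where the median over all genes was 0.02, and -0.22 in TCCSUP, where it was -0.00. In the other 6 lines the members' median lay between -0.10 and 0.07. It was -0.07 in both 639V, with 10 members called lower, and KU1919, with 0. The values were negative for 17 members in 639V and 19 in KU1919. In VMCUB, with 5 called lower, the median was 0.07 and 14 members were positive. Summed over the 26 members, the level was 1890 ± 21.5 CPM with CPI-0209 and 2646 ± 11.1 CPM with DMSO in SW780, a ratio of 0.714, and 1796 ± 11.96 CPM with CPI-0209 and 2200 ± 42.5 CPM with DMSO in TCCSUP, a ratio of 0.817. In the other 6 lines this ratio lay between 0.919 and 0.996, and it was 0.943 in both 639V and KU1919. Precision differed between lines too, with a median SE over the members of 0.04 in HT1197, 0.05 in 639V and SW780, 0.06 in TCCSUP and HT1376, 0.09 in KU1919 and VMCUB, and 0.11 in T24.

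**Figure D2:**
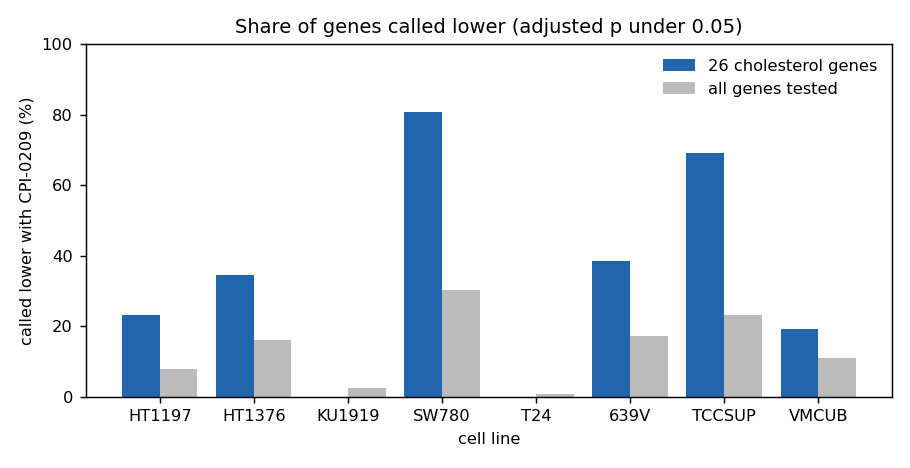
Share of genes called lower with CPI-0209 (percent, adjusted p under 0.05) in each cell line, for the 26 cholesterol genes (blue) and all genes tested (grey). The share of members is above the share of all genes in 6 lines, with 80.8% against 30.3% in SW780 and 69.2% against 23% in TCCSUP, and is 0 in KU1919 and T24.

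Of the 26 members, 3 fell in the fit over all 8 lines, which took 1 sum of counts per line and treatment: ACAT2, IDI1 and EBP. Over all 18110 genes in that fit, 4.41% were called lower and 7.31% higher. No member was called higher, and at an unadjusted p under 0.05 by edgeR's test 11 members were lower and 1, SC5D, higher, against 15.7% and 17.3% of all genes. The median over the members was -0.13, against -0.01 over all genes, and 23 of the 26 values were negative. DESeq2 called 8 members lower and 0 higher, against 12.2% and 13.2% of all genes.

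ACAT2, the cytosolic thiolase that makes acetoacetyl-CoA at the start of the pathway (ENSG00000120437, chromosome 6, 159760328 to 159779055, GRCh38), fell by 0.38 ± 0.06 over the 8 lines (edgeR adjusted p = 0.0151). It had 58.9, 60.9 and 63.7 CPM in SW780 with CPI-0209, against 100, 104 and 103 CPM with DMSO. In 639V the CPI-0209 libraries had 109, 116 and 110 CPM, against 146, 146 and 141 CPM with DMSO. In TCCSUP they had 78.8, 74.2 and 78.4 CPM, against 105, 94.8 and 110 CPM with DMSO. The groups were apart in these lines, and also in HT1197 with 135, 133 and 130 CPM with CPI-0209 against 152, 162 and 161 CPM with DMSO. The HT1376 values were 33.5, 31.9 and 32.1 CPM with CPI-0209, against 45.7, 41.6 and 42.3 CPM with DMSO. VMCUB had 98.7, 102 and 101 CPM with CPI-0209, against 135, 150 and 120 CPM with DMSO. These are the 6 lines in which ACAT2 was called lower, the most of any member. In KU1919 it had 48.6, 38.6 and 38.1 CPM with CPI-0209, against 50.2, 49.4 and 49.0 CPM with DMSO, and in T24 80.5, 85.5 and 99.6 CPM with CPI-0209 against 98.3, 103 and 86.4 CPM with DMSO. The T24 groups overlapped, and the KU1919 groups did not but missed the threshold (-0.25 ± 0.09, adjusted p = 0.14). The shared fall of ACAT2 held without each line in turn. TCP1 and SOD2 overlap ACAT2 on the opposite strand, so part of its count may be theirs if reads were counted without regard to strand, a setting not stated here.

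IDI1, the isomerase that interconverts the isoprene building blocks (ENSG00000067064, chromosome 10, 1039152 to 1049170), fell by 0.25 ± 0.06 over the 8 lines (edgeR adjusted p = 0.0319). With CPI-0209 it had 46.6, 50.01 and 46.0 CPM in SW780, against 57.6, 66.8 and 63.9 CPM with DMSO. In TCCSUP it had 38.0, 35.4 and 39.2 CPM with CPI-0209, against 57.3, 46.4 and 51.7 CPM with DMSO. These are the largest falls of IDI1 among called lines, both -0.43 on the log2 scale. HT1197 had 94.5, 95.3 and 98.4 CPM with CPI-0209, against 105, 109 and 105 CPM with DMSO, and HT1376 had 82.8, 84.8 and 83.4 CPM with CPI-0209 against 99.2, 92.9 and 97.9 CPM with DMSO. In 639V the values were 52.7, 53.6 and 51.8 CPM with CPI-0209, against 58.1, 61.9 and 62.5 CPM with DMSO. IDI1 was called lower in these 5 lines. VMCUB had 91.8, 88.2 and 92.3 CPM with CPI-0209, against 117, 159 and 102 CPM with DMSO, a fall with a larger SE that missed the threshold (-0.42 ± 0.15, adjusted p = 0.0731). KU1919 had 51.9, 47.9 and 42.9 CPM with CPI-0209, against 51.2, 49.7 and 49.0 CPM with DMSO, and T24 had 38.6, 42.4 and 58.0 CPM with CPI-0209 against 40.2, 56.4 and 39.5 CPM with DMSO, and both overlapped. The shared call of IDI1 ended without HT1197, HT1376, SW780, 639V, TCCSUP or VMCUB, with adjusted p between 0.0515 and 0.0788. It ended under library totals as well (-0.16, adjusted p = 0.0965).

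EBP, the sterol isomerase late in the pathway (ENSG00000147155, chromosome X, 48521158 to 48528716), fell by 0.31 ± 0.07 over the 8 lines (edgeR adjusted p = 0.0246). It had 138, 141 and 139 CPM in VMCUB with CPI-0209, against 214, 247 and 183 CPM with DMSO. TCCSUP had 44.8, 42.0 and 45.3 CPM with CPI-0209, against 68.1, 60.3 and 67.3 CPM with DMSO. In SW780 the values were 39.0, 35.1 and 37.3 CPM with CPI-0209, against 49.4, 46.1 and 52.1 CPM with DMSO. The groups did not overlap in these 3 lines, in HT1376 (25.4, 27.5 and 28.9 CPM with CPI-0209 against 38.6, 35.5 and 31.3 CPM with DMSO) or in HT1197 (111, 105 and 114 CPM with CPI-0209 against 117, 122 and 123 CPM with DMSO), the 5 lines with a call. In 639V it had 92.2, 104 and 94.3 CPM with CPI-0209, against 107, 109 and 98.7 CPM with DMSO. KU1919 had 65.2, 40.8 and 41.3 CPM with CPI-0209, against 53.9, 49.5 and 53.0 CPM with DMSO, so that its 1 high CPI-0209 library set the overlap there. T24 had 43.3, 49.1 and 59.2 CPM with CPI-0209, against 60.0, 62.1 and 51.1 CPM with DMSO, and overlapped as 639V did. The shared call of EBP ended without HT1376, T24 or TCCSUP, with adjusted p between 0.0529 and 0.0554, and under library totals (-0.23, adjusted p = 0.0501). Without HT1376 or without TCCSUP, ACAT2 was the 1 member left with a shared call.

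**Figure D3:**
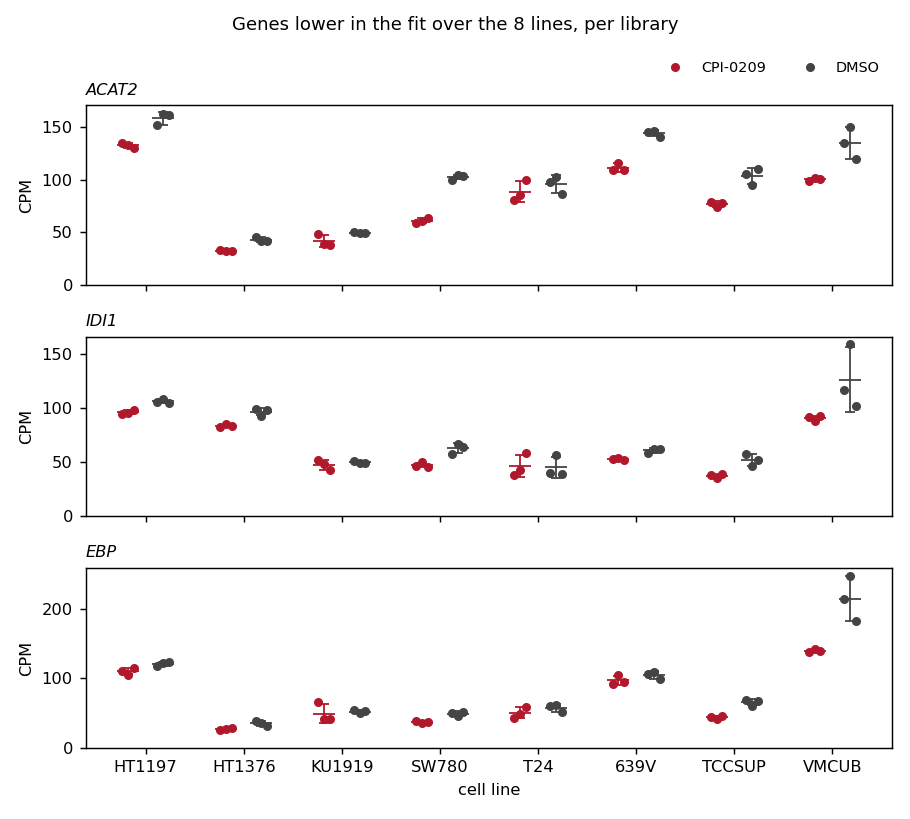
CPM per library of ACAT2, IDI1 and EBP in each cell line, CPI-0209 (red, left) and DMSO (grey, right). Points are libraries, and bars show the mean ± SD of 3 libraries. ACAT2 is lower with CPI-0209 without overlap in every line but T24.

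Promoters of members that fell and of members that rose are shown here because the sterol-regulated genes are known to be read through motifs near the start site. RefSeq promoter windows (GRCh38.p14, 250 bases before to 50 after the start) were matched by symbol for 23 of the 26 members, and ACAT2, FDFT1 and SQLE had no entry. Capitals mark the sterol regulatory element SRE-1, a match of 10 letters found in the SREBF2 line alone, and CCAAT boxes on either strand. Where a gene had several starts, the window nearest to the start of its GENCODE 29 gene is shown. SREBF2 lies at chr22:41832855-41833154 (+), IDI1 at chr10:1049070-1049369 (-), EBP at chrX:48521558-48521857 (+), STARD4 at chr5:111512486-111512785 (-) and SC5D at chr11:121292521-121292820 (+).
SREBF2: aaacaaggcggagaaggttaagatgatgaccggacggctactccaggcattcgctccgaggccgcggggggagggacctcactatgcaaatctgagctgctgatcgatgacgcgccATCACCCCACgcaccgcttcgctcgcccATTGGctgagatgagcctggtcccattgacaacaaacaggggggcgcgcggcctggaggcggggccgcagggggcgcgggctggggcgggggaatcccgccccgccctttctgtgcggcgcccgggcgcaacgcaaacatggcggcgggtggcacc
IDI1: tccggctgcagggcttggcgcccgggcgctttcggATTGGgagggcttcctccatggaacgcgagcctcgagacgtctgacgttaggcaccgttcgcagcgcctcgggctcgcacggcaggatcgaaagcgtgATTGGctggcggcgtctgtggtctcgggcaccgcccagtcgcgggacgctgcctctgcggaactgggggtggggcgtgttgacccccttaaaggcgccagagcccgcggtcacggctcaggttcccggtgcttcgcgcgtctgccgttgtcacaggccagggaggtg
EBP: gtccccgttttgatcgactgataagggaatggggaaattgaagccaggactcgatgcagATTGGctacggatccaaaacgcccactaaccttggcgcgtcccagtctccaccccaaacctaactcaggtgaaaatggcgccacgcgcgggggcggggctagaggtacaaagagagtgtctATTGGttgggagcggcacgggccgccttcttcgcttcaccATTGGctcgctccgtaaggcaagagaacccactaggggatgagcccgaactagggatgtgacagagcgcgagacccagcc
STARD4: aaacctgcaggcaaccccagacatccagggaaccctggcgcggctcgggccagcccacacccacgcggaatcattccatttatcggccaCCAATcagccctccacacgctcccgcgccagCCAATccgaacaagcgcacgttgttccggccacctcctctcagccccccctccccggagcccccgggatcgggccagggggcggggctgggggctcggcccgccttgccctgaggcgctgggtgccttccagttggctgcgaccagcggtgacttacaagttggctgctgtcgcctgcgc
SC5D: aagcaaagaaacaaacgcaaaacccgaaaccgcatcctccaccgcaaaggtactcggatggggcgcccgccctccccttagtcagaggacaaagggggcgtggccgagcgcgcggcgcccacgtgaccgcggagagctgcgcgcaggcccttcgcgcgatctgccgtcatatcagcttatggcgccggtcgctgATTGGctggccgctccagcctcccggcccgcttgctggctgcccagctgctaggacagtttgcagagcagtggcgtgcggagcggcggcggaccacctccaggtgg
The CCAAT letters, searched on both strands, stood in the windows of 16 of the 23 members (in any window where RefSeq lists more than 1 start) and in 34.6% of all 35116 promoter windows. SRE-1 stood in 1 member, SREBF2, and in 0.0456% of all windows (16 of them), and the shorter TCACNCCAC, which overlaps it, in the same member and 1.13% of all windows. The E-box CACGTG stood in 4 members (SCAP, INSIG1, SC5D and LSS) and 7.26% of all windows, and the GC box GGGCGG in 21 members and 45% of all windows. EBP, which fell, and STARD4, which rose in SW780, both hold CCAAT letters. A match describes these windows and is not a binding site. Only these letters were searched, so a window without a match is not shown to lack a sterol regulatory element.

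SW780 had the widest fall, and it ran through the whole synthesis pathway. All 7 mevalonate and isoprenoid genes, all 3 genes from squalene to lanosterol and 8 of 9 genes from lanosterol to cholesterol were called lower. DHCR7, the reductase of the last step to cholesterol (ENSG00000172893, chromosome 11, 71428193 to 71452868), had 90.5, 87.4 and 93.7 CPM with CPI-0209, against 175, 164 and 167 CPM with DMSO. Its log2 fold change was -0.92 ± 0.04 (edgeR adjusted p = 3.64e-12). FDFT1, squalene synthase, averaged 308 ± 4.14 CPM with CPI-0209 and 523 ± 5.56 CPM with DMSO (-0.79 ± 0.04). MVK, mevalonate kinase, fell by 0.77 ± 0.05, ACAT2 by 0.77 ± 0.04 and LSS, lanosterol synthase, by 0.76 ± 0.05. Among the others MVD, the decarboxylase, fell by 0.57 ± 0.05, the sterol reductase TM7SF2 by 0.53 ± 0.05, the lanosterol demethylase CYP51A1 by 0.52 ± 0.04, farnesyl diphosphate synthase FDPS by 0.52 ± 0.04 and MSMO1, the methylsterol oxidase, by 0.44 ± 0.05. The smallest called falls among the enzymes were those of HMGCS1, HMG-CoA synthase (-0.33 ± 0.05), phosphomevalonate kinase PMVK (-0.30 ± 0.06), the sterol dehydrogenase NSDHL (-0.28 ± 0.05), the ketoreductase HSD17B7 (-0.25 ± 0.05), LBR (-0.22 ± 0.05) and squalene epoxidase SQLE (-0.17 ± 0.04). SC5D, the sterol desaturase, stood at 56.0, 58.6 and 52.9 CPM with CPI-0209 and 50.2, 58.4 and 55.9 CPM with DMSO, and was the 1 enzyme not called.

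Of the 5 regulators, 3 were called lower in SW780 and 0 higher. SREBF2 had 140, 130 and 139 CPM with CPI-0209, against 205, 201 and 205 CPM with DMSO (-0.61 ± 0.04), and SREBF1 fell by 0.48 ± 0.05. INSIG2 fell by 0.18 ± 0.06 (adjusted p = 0.013), a call that ended without DMSO replicate 2 (adjusted p = 0.0709) or CPI-0209 replicate 1 (adjusted p = 0.0686). INSIG1 stood at -0.08 ± 0.05 and SCAP at -0.05 ± 0.05, neither called. STARD4, a cytosolic carrier of sterol between membranes (ENSG00000164211, chromosome 5, 111496033 to 111512590), went the other way, with 12.7, 13.3 and 12.4 CPM with CPI-0209, against 3.64, 4.16 and 3.80 CPM with DMSO. That is a 3.23-fold rise (log2 1.69 ± 0.08, adjusted p = 2.62e-12), and it is the smallest p among the members in this line. NPC1, the lysosomal sterol exporter, stood at 0.10 ± 0.05 and was not called. Apart from INSIG2, all calls of SW780 held without each library in turn. Mitochondrial genes held 5.89% to 6.18% of counts in the SW780 CPI-0209 libraries and 4.63% to 5.27% in its DMSO libraries. The proliferation markers MKI67 and TOP2A summed to 832 to 947 CPM with CPI-0209 and 1021 to 1098 CPM with DMSO, and the mesenchymal markers VIM, ZEB1 and CDH2 to 20.1 to 20.9 CPM with CPI-0209 and 9.71 to 10.03 CPM with DMSO. The part of these in the fall of the pathway genes was not tested. Scaling by library totals in place of TMM moved the median of all genes in SW780 to 0.22 and left 15 members lower and 5 higher, with SQLE at 0.03 and INSIG2 at 0.02, neither called. The calls of PMVK (-0.10), NSDHL (-0.08), HSD17B7 (-0.05) and LBR (-0.02) ended under that scaling too.

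TCCSUP showed the next widest fall, with 6 of 7 mevalonate genes, 2 of 3 squalene to lanosterol genes and 6 of 9 later genes called lower. EBP, given above, had the smallest p (-0.53 ± 0.06, edgeR adjusted p = 9.57e-06). SREBF1 had 139, 148 and 139 CPM with CPI-0209, against 195, 196 and 199 CPM with DMSO (-0.44 ± 0.05, adjusted p = 1.2e-05). MSMO1 had the largest fall, to 23.4 ± 1.70 CPM with CPI-0209, against 36.4 ± 2.98 CPM with DMSO (-0.60 ± 0.07). CYP51A1 fell by 0.46 ± 0.07, HSD17B7 by 0.38 ± 0.09, TM7SF2 by 0.36 ± 0.09, HMGCS1 by 0.34 ± 0.05, LBR by 0.27 ± 0.06, MVK by 0.25 ± 0.07, FDFT1 by 0.22 ± 0.05, SQLE by 0.22 ± 0.06, FDPS by 0.21 ± 0.05 and MVD by 0.21 ± 0.05. INSIG1, which retains SCAP and is itself a known SREBP target, fell to 80.5, 79.6 and 80.3 CPM with CPI-0209, against 119, 105 and 107 CPM with DMSO (-0.43 ± 0.06, adjusted p = 5.17e-05). SREBF2 fell by 0.18 ± 0.05 (adjusted p = 0.0154), a call that ended without DMSO replicate 3 or CPI-0209 replicates 1 or 3 (adjusted p 0.0508 to 0.07). NPC1 fell by 0.16 ± 0.06 (adjusted p = 0.0425) and STARD4 rose by 0.19 ± 0.07 (adjusted p = 0.0313). The NPC1 call ended without DMSO replicates 2 or 3 or CPI-0209 replicates 1 or 3 (adjusted p 0.0518 to 0.155), and the STARD4 call without DMSO replicate 3 or CPI-0209 replicates 2 or 3 (adjusted p 0.0876 to 0.149). Library totals ended the NPC1 call as well (0.0809), and DESeq2 the STARD4 call (0.0681). SC5D rose by 0.35 ± 0.06, with 24.5, 22.8 and 24.5 CPM with CPI-0209, against 18.99, 19.4 and 19.3 CPM with DMSO. The epithelial and urothelial markers of TCCSUP summed to 2170 to 2254 CPM with CPI-0209 and 2435 to 2757 CPM with DMSO, beside the higher fibroblast sum given above, and their part in the falls was not tested. DMSO replicate 1 of TCCSUP stood apart in its mitochondrial share, 1.75%, against 3.48% to 3.84% in the line's other 5 libraries. Without it 20 members were called lower, and without any other single library 16 to 18. The share of all genes called in these refits is not given here.

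In 639V, SC5D and ACAT2 had the smallest p. SC5D, which introduces a double bond into the sterol ring (ENSG00000109929, chromosome 11, 121292453 to 121308694), rose to 58.6, 58.3 and 59.2 CPM with CPI-0209, against 41.4, 42.6 and 43.6 CPM with DMSO (0.46 ± 0.05, edgeR adjusted p = 1.93e-06). DHCR7, which acts after SC5D, rose by 0.16 ± 0.04 (adjusted p = 0.00642), and STARD4 rose by 0.17 ± 0.06 (adjusted p = 0.0272). Falls were called for ACAT2 (-0.37 ± 0.04), TM7SF2 (-0.39 ± 0.05), LSS (-0.28 ± 0.04), SQLE (-0.24 ± 0.04), IDI1 (-0.21 ± 0.05), HMGCS1 (-0.19 ± 0.04), SREBF1 (-0.16 ± 0.04), FDPS (-0.15 ± 0.04), CYP51A1 (-0.12 ± 0.04) and FDFT1 (-0.11 ± 0.04). All 3 genes from squalene to lanosterol were among them. SREBF2 stood at -0.07 ± 0.04, INSIG1 at 0.08 ± 0.05 and LBR at -0.02 ± 0.05, none of them called. Calls of STARD4 ended without DMSO replicates 1 or 2 or CPI-0209 replicates 1 or 3 (adjusted p 0.115 to 0.134), those of CYP51A1 without any DMSO replicate or CPI-0209 replicate 1 (0.0506 to 0.0933), and those of FDFT1 without any DMSO replicate or CPI-0209 replicates 1 or 3 (0.0508 to 0.115). Under library totals the calls of FDFT1 (-0.06, adjusted p = 0.236), CYP51A1 (-0.07, 0.221), SREBF1 (-0.11, 0.0532) and FDPS (-0.10, at the threshold) ended, and FDFT1 lost its call with no filter (0.066). All 48 libraries in 1 fit ended the calls of IDI1, FDPS, FDFT1, CYP51A1, DHCR7, SREBF1 and STARD4 (0.143 to 0.348). The epithelial and urothelial markers of 639V summed to 2074 to 2372 CPM with CPI-0209 and 2805 to 3122 CPM with DMSO. The mesenchymal markers summed to 769 to 831 CPM with CPI-0209 and 683 to 713 CPM with DMSO, and the leukocyte markers to 3.49 to 3.98 CPM with CPI-0209 and 9.75 to 10.9 CPM with DMSO. Their part in the calls was not tested.

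HT1376 and HT1197 had fewer members called lower. In HT1376 ACAT2 fell by 0.38 ± 0.06 (edgeR adjusted p = 0.000658), and CYP51A1 had 55.6, 54.7 and 54.6 CPM with CPI-0209, against 64.7, 70.1 and 69.5 CPM with DMSO (-0.28 ± 0.05, adjusted p = 0.00229). TM7SF2 fell there by 0.41 ± 0.10, EBP by 0.34 ± 0.08, MSMO1 by 0.24 ± 0.06, FDFT1 by 0.22 ± 0.06, HSD17B7 by 0.21 ± 0.06, IDI1 by 0.18 ± 0.05 and SREBF2 by 0.15 ± 0.05, and SC5D rose by 0.27 ± 0.06. Of the 9 genes from lanosterol to cholesterol, 5 were lower and 1 higher. The other regulators were not called in HT1376, with SREBF1 at -0.12 ± 0.06, SCAP at -0.09 ± 0.05, INSIG1 at -0.02 ± 0.05 and INSIG2 at 0.16 ± 0.08. Without CPI-0209 replicate 3 the count of lower members was 4, with the calls of IDI1, FDFT1, MSMO1, HSD17B7 and SREBF2 ending at adjusted p between 0.059 and 0.0756. FDFT1 also lost its call without CPI-0209 replicate 1 (0.0528), MSMO1 and HSD17B7 without CPI-0209 replicate 2 (0.0504 and 0.0778), and SREBF2 without 4 other libraries, DMSO replicates 2 and 3 and CPI-0209 replicates 1 and 2 (0.0621 to 0.111) and under library totals (0.0522).

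In HT1197 the 2 members with the smallest p were ACAT2 (-0.23 ± 0.03, edgeR adjusted p = 0.000107) and TM7SF2, with 25.9, 25.7 and 25.9 CPM with CPI-0209, against 28.7, 30.0 and 33.0 CPM with DMSO (-0.22 ± 0.05, adjusted p = 0.00641). FDFT1 and IDI1 fell by 0.13 ± 0.03 each, EBP by 0.11 ± 0.04 and NPC1 by 0.11 ± 0.04, while STARD4 rose by 0.12 ± 0.04 (adjusted p = 0.0489). No regulator was called, and their fold changes lay between -0.09 and 0.01. Without DMSO replicate 2 the count of lower members was 2 and without CPI-0209 replicate 1 it was 3. ACAT2 and TM7SF2 held without each library. FDFT1 lost its call without DMSO replicate 2 (adjusted p = 0.0608), IDI1 without DMSO replicate 2 or CPI-0209 replicate 1 (0.0825 and 0.0776), EBP without DMSO replicates 2 or 3 or CPI-0209 replicates 1 or 2 (0.0895 to 0.13), STARD4 without the same 4 libraries (0.105 to 0.209) and NPC1 without any library but DMSO replicate 3 (0.0602 to 0.178). Under library totals the calls of IDI1 (adjusted p = 0.0658), EBP (0.112) and NPC1 (0.173) ended, with RLE size factors that of STARD4 (0.057), and by DESeq2 those of STARD4 (0.129) and NPC1 (0.0745). A replicate block ended those of EBP (0.0612), STARD4 (0.0553) and NPC1 (0.0881). With all 48 libraries in 1 fit only the call of ACAT2 held, and the others ended (adjusted p 0.139 for TM7SF2 to 0.699 for STARD4).

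VMCUB, KU1919 and T24 were the lines with the largest errors. In VMCUB PMVK had 24.9, 25.4 and 23.4 CPM with CPI-0209, against 37.5, 43.5 and 33.1 CPM with DMSO (-0.57 ± 0.10, edgeR adjusted p = 0.0068), and EBP fell by 0.57 ± 0.10 (adjusted p = 0.00842). Both calls held without each library. ACAT2 fell by 0.37 ± 0.08, FDPS by 0.34 ± 0.10 and CYP51A1 by 0.22 ± 0.07, and HMGCS1 rose by 0.20 ± 0.06 (adjusted p = 0.0403). INSIG1 rose to 89.3, 82.8 and 81.8 CPM with CPI-0209, against 67.3, 78.9 and 68.1 CPM with DMSO (0.30 ± 0.08, adjusted p = 0.0283). The calls of ACAT2, FDPS and CYP51A1 ended without DMSO replicate 1 or any CPI-0209 replicate (adjusted p 0.0768 to 0.168), and those of HMGCS1 and INSIG1 without these or DMSO replicate 3 (0.0784 to 0.162). Without DMSO replicate 3 the count of lower members was 9, and it was 2 without DMSO replicate 1 or any CPI-0209 replicate. The share of all genes called in those refits is not given here. Under library totals the calls of FDPS (-0.25, adjusted p = 0.0839) and CYP51A1 (-0.13, 0.167) ended, and with RLE size factors those of HMGCS1 (0.0802) and INSIG1 (0.0553). With no filter the calls of HMGCS1 (0.106) and CYP51A1 (0.104) ended. The DMSO libraries of VMCUB were far apart for SREBF2, at 284, 219 and 319 CPM, against 313, 316 and 315 CPM with CPI-0209, and SREBF2 was not called (0.25 ± 0.14).

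In KU1919 INSIG1 was the 1 member called. It had 35.1, 34.9 and 38.4 CPM with CPI-0209, against 28.0, 28.3 and 26.8 CPM with DMSO (0.38 ± 0.08, edgeR adjusted p = 0.0259). The groups were apart, but the call ended without any library but CPI-0209 replicate 1 (adjusted p 0.0627 to 0.14). CPI-0209 replicate 1 of KU1919 stood apart from the other CPI-0209 libraries in several members. PMVK had 44.3 CPM there, against 27.1 and 30.1 CPM in the other CPI-0209 libraries, and NPC1 had 48.9 CPM, against 65.2 and 68.6 CPM. Without this library 8 members were called lower and 2 higher. The share of all genes called in that refit is not given here, so these counts have no background. In T24 SC5D was the 1 member called, with 49.3, 50.5 and 54.4 CPM with CPI-0209, against 33.9, 44.3 and 33.7 CPM with DMSO (0.48 ± 0.12, adjusted p = 0.0457), and this call ended without any library but DMSO replicate 2 (0.058 to 0.211). The call of SC5D also ended with RLE size factors (adjusted p = 0.0622) and with no filter (0.0597). The SEs of the members in T24 were 0.08 to 0.18.

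The response differed between lines in 23 of the 26 members by edgeR's F test of the 7 line by treatment terms, against 58.7% of all 19790 genes tested. Without SW780 the count was 16, and without any other single line it was 20 to 24, with no share of all genes given for these refits. STARD4 had the smallest p (adjusted p = 5.97e-13), with a fold change of 1.69 in SW780 and between -0.01 and 0.19 in the other lines. INSIG1 followed (adjusted p = 3.4e-08), called higher in KU1919 and VMCUB and lower in TCCSUP. DHCR7 (adjusted p = 6.74e-08) was called lower in SW780 and higher in 639V, where the rise was not called in the fit over 48 libraries that gave the test (0.17, adjusted p = 0.204). CYP51A1 (adjusted p = 6.2e-08) ranged between -0.52 in SW780 and 0.06 in HT1197, MVK (adjusted p = 6.77e-08) between -0.77 in SW780 and 0.12 in 639V, and FDFT1 (adjusted p = 8.19e-08) between -0.79 in SW780 and 0.14 in T24. The difference was not called for SCAP (adjusted p = 0.544), INSIG2 (adjusted p = 0.364) and IDI1 (adjusted p = 0.0581), which does not show that they responded alike in all lines.

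**Figure D4:**
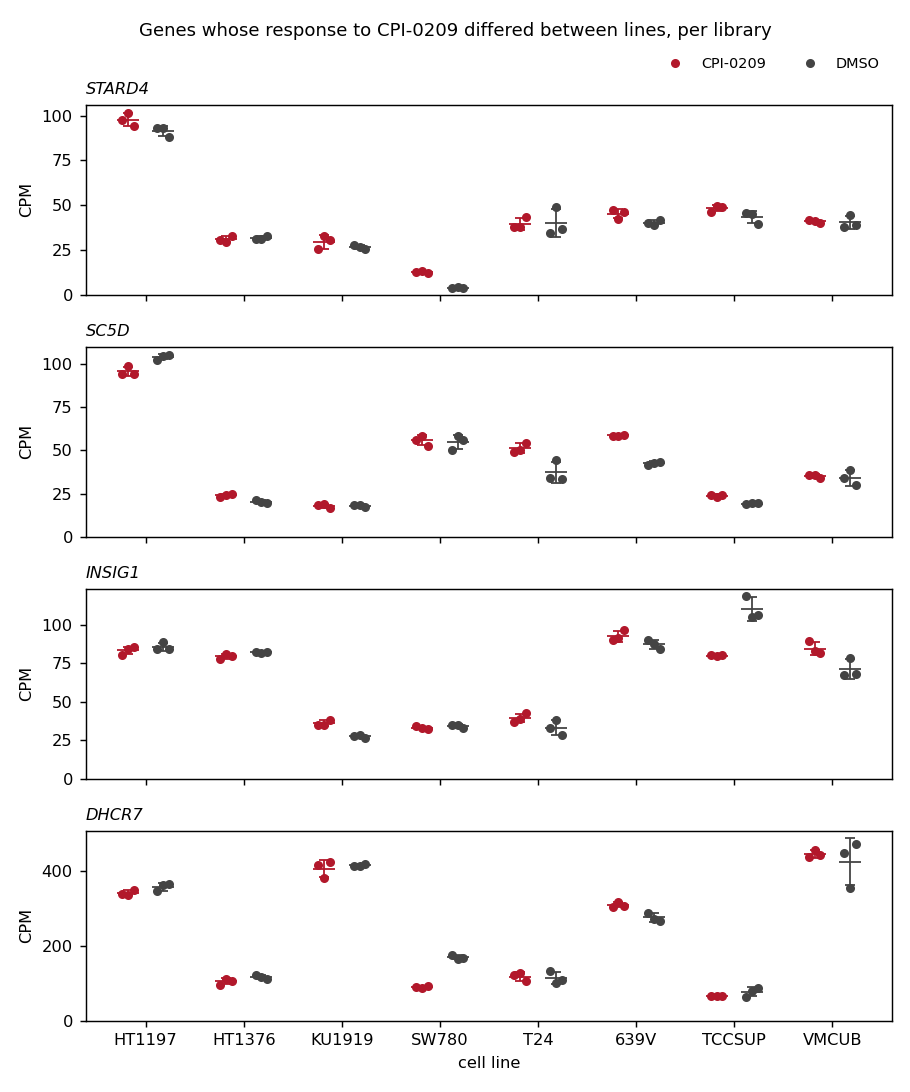
CPM per library of STARD4, SC5D, INSIG1 and DHCR7 in each cell line, CPI-0209 (red, left) and DMSO (grey, right), with mean ± SD of 3 libraries. STARD4 is higher with CPI-0209 in SW780, where its DMSO level (3.87 CPM) is the lowest of the 8 lines, and DHCR7 is lower with CPI-0209 there.

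Over the 8 lines the regulators were not called in the shared fit. SREBF1 stood at -0.19 ± 0.08 (edgeR adjusted p = 0.131), SREBF2 at -0.15 ± 0.08 (adjusted p = 0.191), SCAP at -0.04 ± 0.04 (adjusted p = 0.502), INSIG2 at -0.02 ± 0.05 (adjusted p = 0.764) and INSIG1 at 0.04 ± 0.08 (adjusted p = 0.768). By line, SREBF2 was called lower in HT1376, SW780 and TCCSUP, and SREBF1 in SW780, 639V and TCCSUP. TM7SF2 and LBR encode reductases that act on the same sterol double bond, and LBR also anchors chromatin to the nuclear lamina. TM7SF2 was called lower in 5 lines (-0.26 ± 0.08 in the shared fit, adjusted p = 0.0564) and LBR in 2, SW780 and TCCSUP (-0.11 ± 0.05, adjusted p = 0.141). In 639V TM7SF2 had 68.4, 74.6 and 68.1 CPM with CPI-0209, against 95.2, 92.2 and 89.2 CPM with DMSO, without overlap. LBR in 639V had 128, 115 and 124 CPM with CPI-0209, against 124, 120 and 128 CPM with DMSO, and the groups overlapped. VPS51 overlaps TM7SF2 on the same strand and RAI1 overlaps SREBF1 on the opposite strand, so the counts of both members are uncertain to that extent, as are those of MVK (MMAB), CYP51A1 (2 genes without a symbol on its strand), SCAP (C1orf100P1) and NPC1 (RMC1).

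Without CPI-0209, lines differed in the level of every member by the F test of 7 terms on the 24 DMSO libraries, as did 97.5% of all genes tested. STARD4 had the widest range. HT1197 had 93.2, 92.8 and 88.0 CPM and SW780 3.64, 4.16 and 3.80 CPM, a 23.6-fold difference of means. TCCSUP, VMCUB, 639V and T24 lay at 43.6 ± 3.31, 40.5 ± 3.59, 40.2 ± 1.316 and 40.0 ± 8.06 CPM and did not differ beyond their spread, and HT1376 and KU1919 had 31.7 ± 1.07 and 26.6 ± 1.18 CPM. TM7SF2 came next, with 95.2, 92.2 and 89.2 CPM in 639V and 7.51, 7.06 and 8.06 CPM in TCCSUP. Its level in HT1376, 8.24 ± 0.842 CPM, overlapped that of TCCSUP, and the other lines had 12.7 to 60.6 CPM. FDFT1 had 843, 883 and 876 CPM in HT1197, then 523 ± 5.56 CPM in SW780 and 371 ± 46.3 CPM in VMCUB, down to 119, 116 and 115 CPM in KU1919. SREBF1 had 627, 594 and 574 CPM in HT1376 and 102, 75.9 and 80.1 CPM in T24, with the other 6 lines at 197 to 328 CPM. HMGCS1 was highest in 639V, at 298, 288 and 305 CPM, and lowest in KU1919, at 48.6, 47.7 and 46.8 CPM, with T24 at 57.8 ± 2.80 CPM and SW780 at 67.9 ± 2.88 CPM. EBP had 214, 247 and 183 CPM in VMCUB and 38.6, 35.5 and 31.3 CPM in HT1376, and KU1919 and SW780 overlapped in between, at 52.1 ± 2.33 and 49.2 ± 3.02 CPM.

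**Figure D5:**
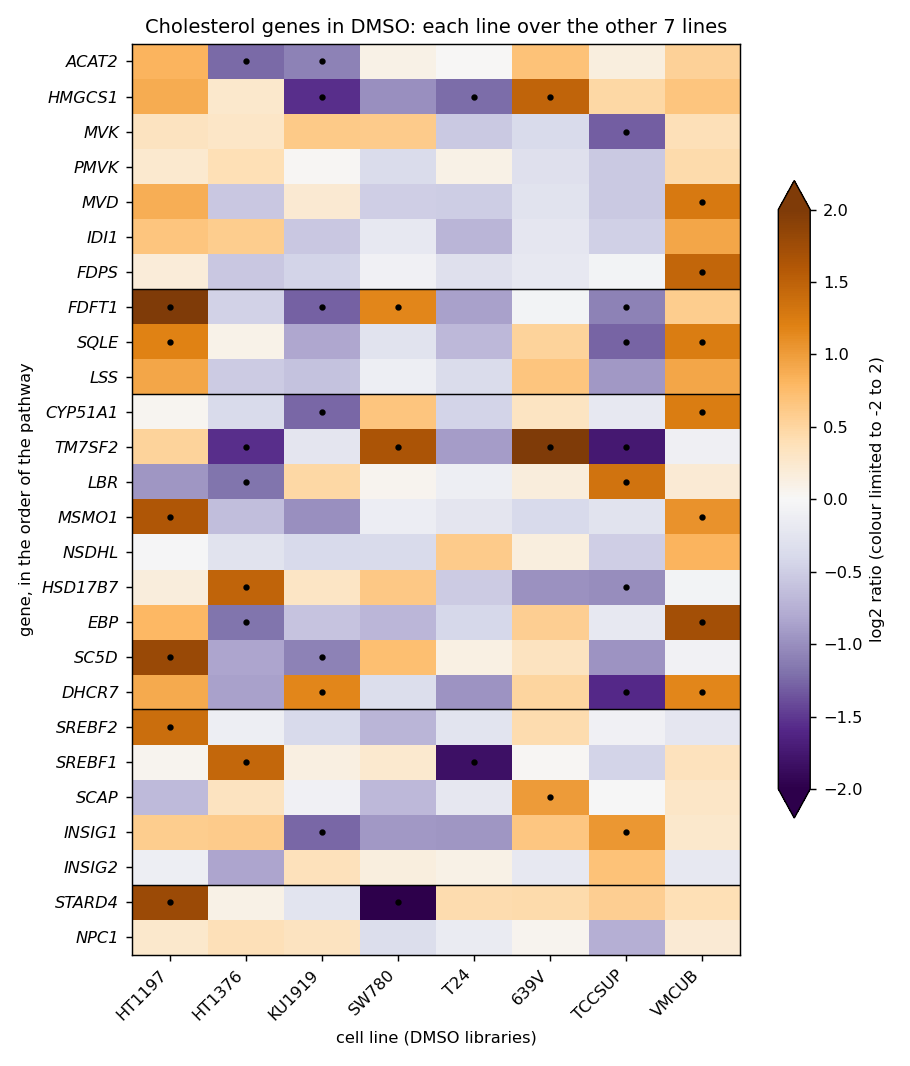
Log2 ratio of each line's DMSO level over the mean of the other 7 lines, for the 26 members (rows). Colour is limited to -2 to 2 and dots mark an adjusted p under 0.05 with at least a 2-fold difference. VMCUB has 7 members called higher and none lower, and HT1197 has 6 and none, while TCCSUP and KU1919 have 6 called lower each.

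Each line was also set against the mean of the other 7 lines, counting members past an adjusted p of 0.05 and a 2-fold difference. VMCUB had 7 members higher and 0 lower, against 14.5% and 17.2% of all genes, and the 7 were MVD, FDPS, SQLE, CYP51A1, MSMO1, EBP and DHCR7. HT1197 had 6 higher and 0 lower, against 19.2% and 16.4% of all genes, namely FDFT1 (log2 ratio 2.00 ± 0.05), SC5D (1.79 ± 0.06), STARD4 (1.77 ± 0.06), MSMO1 (1.61 ± 0.08), SREBF2 (1.39 ± 0.07) and SQLE (1.20 ± 0.04). TCCSUP had 2 higher, LBR and INSIG1, and 6 lower, MVK, FDFT1, SQLE, TM7SF2, HSD17B7 and DHCR7, against 19.1% and 12.4% of all genes. KU1919 had 1 higher, DHCR7, and 6 lower, ACAT2, HMGCS1, FDFT1, CYP51A1, SC5D and INSIG1, against 18.3% and 11.6%. HT1376 had 2 higher, SREBF1 and HSD17B7, and 4 lower, ACAT2, TM7SF2, LBR and EBP, against 20.6% and 14%. 639V had 3 higher, HMGCS1, TM7SF2 and SCAP, and 0 lower, against 15.7% and 15.1%. SW780 had 2 higher, FDFT1 and TM7SF2, and 1 lower, STARD4, against 17.2% and 11.8%. T24 had 0 higher and 2 lower, HMGCS1 and SREBF1, against 11.1% and 14.9%. The median log2 ratio of the 26 members was 0.63 in HT1197, 0.49 in VMCUB, 0.25 in 639V, -0.17 in SW780, -0.32 in HT1376, -0.39 in T24, -0.40 in KU1919 and -0.46 in TCCSUP, where the medians over all genes lay between -0.04 and 0.03.

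Levels of different members were compared per kilobase of exonic length, within the DMSO libraries. This length comes from the annotated exons of each gene and is the same in every line. It is not the length of the mRNA made in these lines, which was not measured. The ranks between members and the sizes of the pair ratios below therefore depend on the annotation, and other lengths could change them. DHCR7 had the highest CPM per kb of the members in KU1919 (99.5 ± 0.970), 639V (66.2 ± 2.81) and VMCUB (102 ± 14.9), but was within the spread of HMGCS1 (63.1 ± 1.85) in 639V and of FDPS (100.02 ± 13.7) in VMCUB. FDFT1 was highest in HT1197 (167 ± 4.05) and SW780 (100.5 ± 1.07), SREBF1 in HT1376 (74.5 ± 3.36), SREBF2 in T24 (34.7 ± 4.39, within the spread of FDPS at 33.3 ± 2.78) and LBR in TCCSUP (47.5 ± 2.83). HSD17B7 was lowest in 5 lines, HT1197, T24, 639V, TCCSUP and VMCUB, at 1.51 to 3.13 CPM per kb. The balance within pairs also differed. SREBF2 over SREBF1, per kb, was 3.26 ± 0.333 in T24 and 2.83 ± 0.0635 in HT1197, and 0.491 ± 0.0295 in HT1376 and 0.711 ± 0.0185 in SW780. LBR over TM7SF2 was 21.5 ± 2.05 in TCCSUP, between 3.99 and 5.36 in VMCUB, HT1376, KU1919 and T24, 1.37 ± 0.140 in HT1197, 1.25 ± 0.1003 in SW780 and 0.873 ± 0.0473 in 639V. INSIG1 over INSIG2 was 8.75 ± 0.501 in HT1376 and 1.36 ± 0.0456 in KU1919. Across the 8 lines, 20 of 25 members had a positive correlation of mean log2 CPM with SREBF2 (median r 0.32, range -0.38 to 0.71, highest for STARD4) and 17 of 25 with SREBF1 (median r 0.17, range -0.58 for INSIG2 to 0.68 for HSD17B7). The median rank correlation was 0.19 with SREBF2 and 0.10 with SREBF1. These are descriptions over 8 points that share their scaling factors.

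Each of 6 further lists around the pathway had at most 1 gene called in the shared fit. Of all genes in that fit 4.41% were lower and 7.31% higher. Among 13 tested genes of fatty acid synthesis and SREBP-1 targets, 1 was lower in the shared fit, ACLY, which makes cytosolic acetyl-CoA. ACLY averaged 321 ± 151 CPM with CPI-0209 and 362 ± 143 CPM with DMSO (SD, n = 8 lines), a log2 fold change of -0.21 ± 0.06 (edgeR adjusted p = 0.046). The elongase ELOVL6 (-0.18 ± 0.06, adjusted p = 0.0595) and acetyl-CoA carboxylase ACACA (-0.20 ± 0.07, adjusted p = 0.098) missed the threshold. By line, 10 of the 13 were called lower and 3 higher in SW780, 8 and 0 in HT1376, 7 and 3 in TCCSUP, 1 and 2 in HT1197, 1 and 3 in VMCUB, 0 and 4 in 639V, 0 and 1 in KU1919 and 0 and 0 in T24. The shares of all genes called in these lines, given above for the members, were 30.3% lower and 30.8% higher in SW780, 16% and 23.7% in HT1376, 23% and 25.7% in TCCSUP, and 17.1% and 22.1% in 639V. Of 12 non-sterol isoprenoid genes 8 were lower in SW780, 4 in TCCSUP, 3 in HT1376 and 2 in VMCUB, and 2 were higher in 639V and 1 each in SW780, TCCSUP and VMCUB. In the shared fit 1 of the 12 was lower, against 4.41% of all genes, namely NUS1, a subunit of the dolichol-making prenyltransferase (-0.18 ± 0.04, adjusted p = 0.0254). FNTA, the farnesyltransferase subunit (-0.15 ± 0.05, adjusted p = 0.0836), and the prenyl protease RCE1 (-0.11 ± 0.04, adjusted p = 0.112) were not called.

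ABCG1, a sterol efflux transporter and liver X receptor target, was the 1 gene of these lists higher in the shared fit (0.72 ± 0.16, edgeR adjusted p = 0.0291), and 6 single lines had the same call. In SW780 it had 15.3, 15.1 and 16.8 CPM with CPI-0209, against 6.15, 5.71 and 6.09 CPM with DMSO. In HT1376 it had 71.5, 70.5 and 71.9 CPM with CPI-0209, against 44.2, 44.97 and 44.1 CPM with DMSO, again without overlap. Of 8 tested genes in that list, the receptors NR1H3 (-0.18 ± 0.08, adjusted p = 0.158) and NR1H2 (-0.08 ± 0.04, adjusted p = 0.178) were not called. In the list of 14 esterification and sterol transport genes NCEH1, a cholesteryl ester hydrolase, fell by 0.35 ± 0.07 (adjusted p = 0.0232), with a call in 5 lines. It was deepest in TCCSUP, at 31.1, 31.1 and 29.6 CPM with CPI-0209, against 52.7, 56.8 and 53.9 CPM with DMSO. VAPA, a membrane contact protein (-0.19 ± 0.06, adjusted p = 0.0527), and STARD5, a relative of STARD4 (0.38 ± 0.14, adjusted p = 0.0901), were not called. No gene was called in the shared fit among 15 genes of SREBP processing, degradation and co-factors, with ERLIN1, a protein of sterol-regulated degradation, at -0.14 ± 0.04 (adjusted p = 0.0754) and NFYB, a subunit of NF-Y, at -0.13 ± 0.06 (adjusted p = 0.171). The same held for the 6 genes of the list around other lipoprotein receptors, not all of which encode receptors. VLDLR stood at 0.47 ± 0.14 (adjusted p = 0.0522), LRP2 at 0.67 ± 0.21 (adjusted p = 0.061) and LRP1 at 0.30 ± 0.11 (adjusted p = 0.102). Shared calls ended without some single lines: ABCG1 without HT1376, SW780, T24 or 639V (adjusted p 0.0527 to 0.0697), NCEH1 without T24 (0.059), NUS1 without HT1376, T24, 639V or TCCSUP (0.0521 to 0.0671) and ACLY without any 1 of the 8 lines (0.052 to 0.103). Library totals ended the calls of NUS1 (-0.10, adjusted p = 0.159), NCEH1 (-0.26, 0.0588) and ACLY (-0.13, 0.149), and ACLY lost its call with no filter (0.0702).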

How the data were processed

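RNA from 24 CPI-0209 and 24 DMSO libraries was sequenced with a TruSeq v2 kit, per the labels' protocols, which also name a strand-specific protocol. STAR 2.7.3a, RSEM 1.3.1 and the hg38 build stand in the submitters' processing notes, and the use of strand in counting is not stated there. The deposited values are whole-number counts per gene, as the authors gave them, unnormalized; how estimated counts were made whole is not stated. Symbols came from a name table for 35414 of the 35535 gene IDs, and coordinates for 35497 from GENCODE 29 on GRCh38. The 26 members and the other lists were chosen with earlier results of these data known.

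Each line's 6 libraries were fitted with edgeR 4.0.16 (TMM scaling, filterByExpr, robust quasi-likelihood test, two-sided, R 4.3.3), with 4 residual degrees of freedom. The shared response was fitted on 16 sums, 1 per line and treatment, with line as a term. Differences in response were tested by an F test of 7 interaction terms over 48 libraries, and DMSO levels by an F test of 7 terms over 24 libraries and by each line against the mean of the other 7 lines, with a 2-fold minimum. P-values were Benjamini-Hochberg adjusted over all genes tested, at a threshold of 0.05. CPM used TMM factors of all 48 libraries, so ratios of mean CPM differ from fitted fold changes by up to 0.06 on the log2 scale. The SE follows from each fold change and its F statistic. Library totals ranged from 26481418 to 50916911 and the least member count in a library was 126, so for the members with the fewest counts counting error is part of the spread. The rule for named genes took members called in a line, every library's values for members called in the shared fit and for up to 2 called members per line with the smallest p, 6 members for differences between lines, 6 with the widest range of DMSO levels, all regulators, TM7SF2 and LBR, and up to 3 genes per other list. Alternatives were RLE size factors, library totals, no filter, DESeq2 1.42.0, a replicate block, all 48 libraries in 1 fit and 67 refits without 1 library, replicate or line. Scripts were tested on simulated data. Libraries of the same replicate number were not treated as pairs in the main fits. A few genes that the rule or the marker lists would name are not reported here.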

Additional observations from a re-analysis of the deposited data

Results flagged for a closer look

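The 23 members below had a response to CPI-0209 that differed between the 8 lines by edgeR's F test of the line by treatment terms, which is what singled them out. Among early pathway genes the adjusted p of this difference was 6.77e-08 for MVK, 4.54e-07 for HMGCS1, 0.000184 for MVD, 0.000345 for ACAT2, 0.000847 for PMVK and 0.00732 for FDPS. HMGCS1 ranged between -0.34 in TCCSUP and 0.20 in VMCUB on the log2 scale, and both ends were called. ACAT2 ranged between -0.77 in SW780 and -0.10 in T24, and FDPS between -0.52 in SW780 and -0.02 in KU1919, with the ends nearest to 0 not called. PMVK ranged between -0.57 in VMCUB and 0.22 in KU1919. Around squalene the adjusted p was 8.19e-08 for FDFT1, 1.44e-06 for LSS and 8.21e-05 for SQLE.

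Among genes from lanosterol to cholesterol it was 6.2e-08 for CYP51A1, 6.74e-08 for DHCR7, 1.34e-05 for SC5D, 0.000451 for MSMO1, 0.000454 for HSD17B7, 0.000602 for TM7SF2, 0.0154 for EBP, 0.0283 for LBR and 0.0409 for NSDHL. SC5D ranged between -0.10 in HT1197, which missed the threshold in that line (adjusted p = 0.0532), and 0.48 in T24. MSMO1 ranged between -0.60 in TCCSUP and 0.15 in T24. Among regulators it was 3.4e-08 for INSIG1, 1.88e-05 for SREBF1 and 0.00043 for SREBF2. SREBF1 stood at -0.48 in SW780 and 0.24 in VMCUB, and SREBF2 at -0.61 in SW780 and 0.25 in VMCUB, with the VMCUB values not called. For the transport genes it was 5.97e-13 for STARD4 and 0.000768 for NPC1, which ranged between -0.39 in KU1919 and 0.42 in VMCUB, neither of them called in its line.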

How the results depend on the processing

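The 88 named fold changes and their alternative settings made 1063 pairs of a fold change and a setting. Of these pairs 884 kept direction and call, 177 lost the call and 2 turned direction. Of the 88 fold changes 48 held under every setting run. The 2 were SQLE (0.0333) and INSIG2 (0.0173) in SW780 under library totals, where the median of all genes moved to 0.22 and the share of calls that were higher to 75%, against 50.5% under TMM. That share moved to 79.8%, against 59.9%, in VMCUB (median 0.13), to 75.6%, against 60.3%, in HT1197, to 71.9%, against 56.4%, in 639V, and to 93.9%, against 62.4%, in the shared fit. Under library totals 3 members were lower in HT1197, 6 in 639V, 3 in VMCUB and 1 in the shared fit, and 5 were higher in SW780 and 6 in 639V. With RLE size factors 0 were higher in HT1197, T24 and VMCUB, and with no filter 0 in T24. DESeq2 gave 0 higher in HT1197, 1 lower in KU1919, 1 higher in TCCSUP, 8 lower in VMCUB and 8 lower in the shared fit. With all 48 libraries in 1 fit 1 was lower and 0 higher in HT1197, 6 lower in KU1919, 1 lower and 2 higher in T24, 5 lower and 1 higher in 639V, 1 higher in TCCSUP and 10 lower in VMCUB. In that fit 21 of the 88 named fold changes lost the call, and with a replicate block 13 did. Beyond the DESeq2 shares given above, shares of all genes called under these settings are not given here. The member counts therefore show how the calls move and are not a result about the members. The cause was not tested.

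Libraries of the same replicate number were little alike: 1 of 24 same-numbered pairs had a correlation of deviations over 0.1 (range -0.21 to 0.13), and 4 libraries correlated best with their own number. No values from cultures known to be paired were at hand, so this cannot decide whether replicate numbers paired libraries. With the replicate number as a block 0 members were higher in HT1197, KU1919 and T24, 5 lower in HT1376 and 2 higher in SW780. There were 5 higher in 639V, and 3 lower and 1 higher in VMCUB. A shared fit on 48 libraries with a block within line gave 16 lower and 1 higher. That fit counts the 3 libraries of a line as replicates of a shared response, so the line is not its unit of replication. Shares of all genes called with these blocks are not given here.

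Leaving out 1 library at a time, the members lower and higher numbered 2 to 5 and 0 to 1 in HT1197, 4 to 9 and 1 to 2 in HT1376, 0 to 8 and 0 to 2 in KU1919, 20 to 21 and 1 to 2 in SW780, 0 and 0 to 1 in T24, 8 to 11 and 2 to 4 in 639V, 16 to 20 and 1 to 2 in TCCSUP, and 2 to 9 and 0 to 3 in VMCUB. Leaving out 1 line at a time, 1 to 4 were lower and 0 higher in the shared fit and 16 to 24 differed between lines. All 26 differed in DMSO level without each replicate number. Shares of all genes called in these refits are not given here. The counts therefore show how the calls move and are not a result about the members. The wide range in KU1919 came from CPI-0209 replicate 1 (8 lower and 2 higher without it) and that in VMCUB from DMSO replicate 3 (9 lower without it). Errors of the members were largest in T24, with SEs of 0.08 to 0.18 on the log2 scale.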
